A study of Rattus norvegicus with 9 samples.

Results

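Small leucine-rich proteoglycans (SLRPs) are described here through 10 rat genes taken by their symbols: Fmod, Lum, Dcn, Bgn, Ogn, Aspn, Aspnl1, Prelp, Omd and Podn. Of these, 9 were found among the 34267 genes of the deposited table, and Podn was not analysed here. The rule takes genes by name and sets no threshold on a measured value. The members and the gene lists below were, however, chosen with earlier results of these data known. Their counts called, set beside the shares over all genes, are therefore descriptions and not independent support. A level is given in FPKM, a fragment count divided by gene length and scaled for library depth, and can therefore be compared between genes as far as the deposited gene lengths hold. Of the 9 genes, 8 reached 1 FPKM in at least 3 libraries and were tested, together with all 13059 genes that did so. Omd stayed below that level.

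SLRPs are secreted proteins built on a horseshoe of leucine-rich repeats, most of which carry chondroitin, dermatan or keratan sulfate chains. They coat collagen fibrils, set fibril thickness and spacing, and bind growth factors such as those of the transforming growth factor beta (TGF-beta) family. Decorin, biglycan and asporin form class I of the family, fibromodulin, lumican, PRELP and osteomodulin form class II, and osteoglycin belongs to class III. In cartilage and in the fibrous tissue around it they are abundant components of the matrix.

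The cells were primary cultures of progenitors from the condylar cartilage of wild-type rats (Rattus norvegicus), and polyadenylated RNA was sequenced in 9 libraries. The control cells were cultured to passage 3 (P3), other cells to passage 9 (P9) as a model of replicative senescence, and the last group was P3 cells put under flow fluid shear stress (FFSS) as a model of mechanically induced degeneration, with 3 libraries each. The strength and duration of the flow are not given in the sources used here. Nothing in the labels says whether replicates came from separate animals or cultures, so a p-value measures the spread between these libraries only, which may be technical.

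Libraries held 13264930 to 15323790 counted fragments. Replicates differed by more than counting noise, with a chi-square per degree of freedom of 8.82 to 34.5 for pairs other than those with FFSS replicate 1. That library stood farther from FFSS replicate 2 (131) and replicate 3 (65.2) than these did from each other (25.9), and calls of SLRP genes and counts of gene lists that change without it are given with and without it. Among 9 markers of cartilage progenitors and chondrocytes, 7 exceeded 1 FPKM in every library, while Col2a1, the chondrocyte collagen, reached at most 1.06. Their sums were 2121 to 2131, 1804 to 2151 and 2142 to 2209 FPKM in P3, P9 and FFSS, but single markers differed between the groups. Acan had 122 to 135, 499 to 609 and 29.3 to 48.2 FPKM, and Col11a1 had 809 to 918, 194 to 307 and 405 to 523. Prg4 ran from 0 FPKM at P9 to 41.9 with FFSS. Summed over 7 leukocyte markers found in the table, the P3 libraries had 9.60 to 11.1 FPKM, the P9 libraries 5.14 to 5.66 and the FFSS libraries 42.2 to 105.4. Most of this was Cd14, with Cd3e at 0 in every library and Ptprc at no more than 0.0400. Cd68 had 2.11 to 2.60 FPKM in the FFSS libraries and at most 0.873 elsewhere. With FFSS Lyz2 ran from 0.0562 to 5.36 and Csf1r from 0.0840 to 3.17 FPKM. Elsewhere they had at most 0.305 and 0.218, so their FFSS libraries overlapped the other groups. The 6 skeletal muscle markers summed to 2.76 to 16.7, 35.8 to 43.4 and 0.640 to 2.03 FPKM in P3, P9 and FFSS, mostly from Acta1. Of the glia markers, S100b carried sums of 15.2 to 28.8, 18.1 to 26.5 and 64.6 to 89.9, with Sox10 at no more than 0.0444. The 6 synovial and tendon markers summed to 395 to 491, 301 to 365 and 521 to 607. Endothelial, epithelial and erythroid sums stayed below 1 FPKM in every library, and the part of any of these markers in the SLRP results was not tested.

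Lumican and fibromodulin both fell at P9 and lay highest under FFSS, while osteoglycin had the largest standard error of the tested members, so the 250 bases before the transcription start of these 3 genes are shown. They come from RefSeq (build GRCr8), which held 5 of the 10 members: Fmod, Lum, Ogn, Aspn and Omd. The stretches lie on chromosome 13 from 48045317 to 48045566 on the plus strand (Fmod), on chromosome 7 from 34245456 to 34245705 on the plus strand (Lum) and on chromosome 17 from 15258996 to 15259245 on the minus strand (Ogn). Capitals mark matches, on either strand, to the SMAD box CAGAC, the GC box GGGCGG, the TATA box TATAAA, the TEAD site GGAATG or the AP-1 site TGANTCA.
Fmod: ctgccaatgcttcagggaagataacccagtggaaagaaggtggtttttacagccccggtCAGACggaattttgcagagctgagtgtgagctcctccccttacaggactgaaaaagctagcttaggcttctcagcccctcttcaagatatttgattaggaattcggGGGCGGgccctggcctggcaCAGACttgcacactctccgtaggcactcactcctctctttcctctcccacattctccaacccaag
Lum: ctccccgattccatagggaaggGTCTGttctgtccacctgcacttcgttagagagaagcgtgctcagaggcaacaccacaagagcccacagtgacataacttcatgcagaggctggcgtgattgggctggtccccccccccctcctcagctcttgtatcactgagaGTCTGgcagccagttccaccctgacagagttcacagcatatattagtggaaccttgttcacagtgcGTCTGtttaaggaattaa
Ogn: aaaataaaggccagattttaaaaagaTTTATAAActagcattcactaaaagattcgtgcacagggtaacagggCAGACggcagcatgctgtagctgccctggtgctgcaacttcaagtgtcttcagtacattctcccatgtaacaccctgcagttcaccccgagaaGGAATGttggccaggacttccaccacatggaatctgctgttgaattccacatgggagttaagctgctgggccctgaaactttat
The Fmod stretch held 2 matches to the SMAD box and 1 to the GC box, and the Lum stretch held 3 matches to the SMAD box. In the Ogn stretch there were 1 match to the SMAD box, 1 to the TEAD site and 2 overlapping matches to the TATA box on opposite strands. The Aspn and Omd stretches held none of the 5 motifs. For comparison, 42.9% of the 33469 promoters of this length in the table hold the SMAD box, 30.5% the GC box, 12.9% the TATA box, 12.1% the TEAD site and 6.34% the AP-1 site. These are matches of letters, not measured binding sites.

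In control cells 2 genes stood far above the others. Biglycan (Bgn) reached 1180 ± 71.1 FPKM (SD, n = 3) and fibromodulin (Fmod) 1121 ± 133, which ranked them 34 and 37 among all genes of the table at P3. Their libraries overlapped, so their order at P3 does not exceed their spread. Prelp followed at 94.7 ± 15.1 FPKM. Lum at 32.3 ± 15.9, Aspnl1 at 27.1 ± 34.4 and Dcn at 20.03 ± 12.2 overlapped one another. Ogn at 4.43 ± 0.193 and Aspn at 2.86 ± 0.486 were low but separate, and Omd was nearly absent.

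At P9 the order was different. Bgn led at 1561 ± 380 FPKM, and Prelp at 108 ± 17.01 overlapped Fmod at 72.4 ± 61.5. Below 10 FPKM stood Ogn at 7.57 ± 6.26, Dcn at 2.13 ± 1.48, Lum at 1.604 ± 1.13, Aspn at 0.771 ± 0.944 and Aspnl1 at 0.230 ± 0.0478, and each of these overlapped the next. Under FFSS, Fmod led at 1939 ± 365 FPKM and lay above Bgn, at 1354 ± 65.4, in every library. Prelp at 362 ± 172 overlapped Dcn at 138 ± 103, and Dcn overlapped Lum at 132 ± 11.0. Ogn followed at 52.4 ± 43.0, Aspnl1 at 12.9 ± 9.58 and Aspn at 5.55 ± 4.06, again with overlapping libraries.

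**Figure D1:**
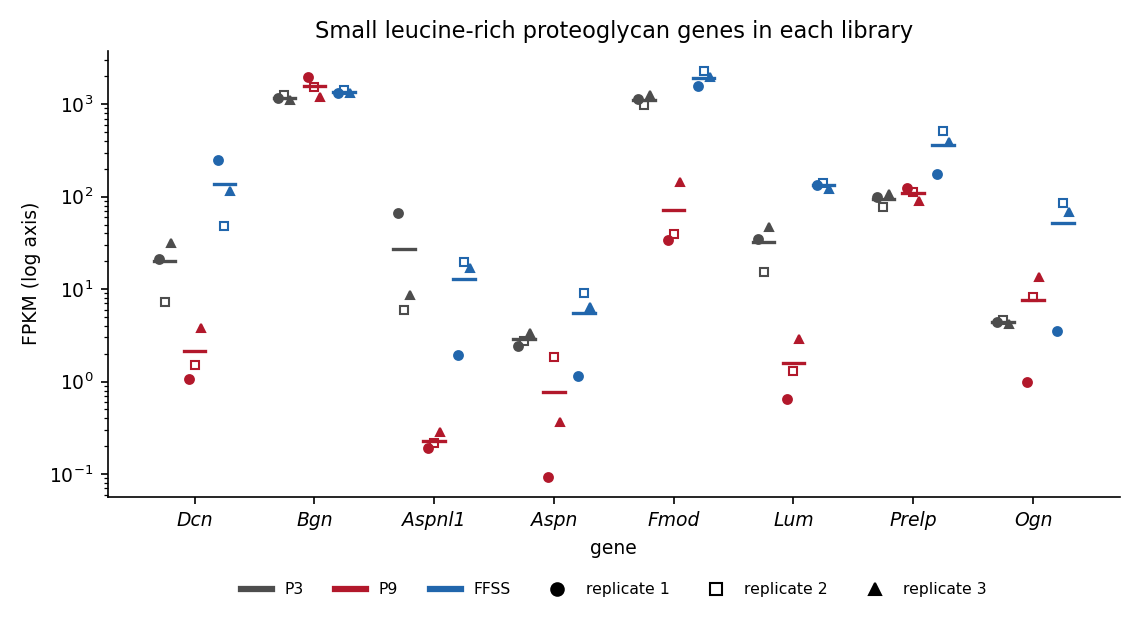
FPKM (log axis) of the 8 tested SLRP genes in each of the 9 libraries, with P3 in grey, P9 in red and FFSS in blue, symbols for replicates 1 to 3 and a bar at each group's mean. Bgn stays between 1115 and 1953 FPKM in all libraries, whereas Fmod, Lum, Dcn and Aspnl1 have all P9 libraries below all P3 libraries.

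At P9, 4 of the 8 tested SLRP genes fell against P3 (Fmod, Lum, Dcn and Aspnl1) and 0 rose by limma on log2(FPKM + 1) with Benjamini-Hochberg adjustment over all 13059 genes. At an unadjusted p under 0.05 the counts were likewise 4 lower and 0 higher, and voom on the recovered fragments called 2 lower and 0 higher. Of all tested genes, limma called 4.44% lower and 5.39% higher in this comparison at an adjusted p under 0.05. Shares over all genes at an unadjusted p or by voom are not given, here or in the results that follow. Counts at those settings are therefore not to be read against the limma shares. The median log2 fold change of the 8 genes was -1.94, against 0.00 over all tested genes. All P9 libraries lay below all P3 libraries for 5 of the 8 genes, which held for 19.1% of all tested genes. The number that fell was 2 (Fmod and Lum) without P3 replicate 1 or 3, any 1 of the P9 libraries or FFSS replicate 3. It was 5 without FFSS replicate 1, with Aspn added. Over all genes, 580 were called lower with all libraries, and 257 to 1001 with 1 library left out. Counts with a library left out, here and in the lists below, have no share over all genes at the same setting beside them. In bulk RNA, fewer cells of one type and less RNA per cell cannot be told apart, here or in the results that follow.

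Under FFSS, 3 of the 8 genes rose against P3 (Lum, Dcn and Prelp) and 0 fell. At an unadjusted p under 0.05, 4 were higher and 0 lower, and voom called 3 higher and 0 lower. Over all tested genes, limma called 11.4% higher and 10.4% lower at an adjusted p under 0.05. The members' median was 1.29 on the log2 scale, against -0.01 over all tested genes. In 5 of the 8 genes every FFSS library exceeded every P3 library, against 20.1% of all tested genes. Without FFSS replicate 1 the count that rose was 5, with Ogn and Aspn added, and it was 2 without P3 replicate 1, P3 replicate 2 or FFSS replicate 3, where Dcn was lost. The calls over all genes moved as well: 1483 were higher with all libraries, and 658 to 2488 with 1 library left out.

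The P9 and FFSS libraries differ in both passage and flow, and they were compared only to set the 2 models side by side. In that comparison 6 of the 8 genes were lower at P9 (Fmod, Lum, Dcn, Prelp, Aspnl1 and Aspn) and 0 higher, at an unadjusted p under 0.05 as well, and voom called 4 lower and 0 higher. Of all tested genes, limma called 15.3% lower and 16.1% higher at an adjusted p under 0.05. The members' median was -2.65, against 0.00 for all tested genes. Without FFSS replicate 1 the count lower at P9 was 7, with Ogn added. It was 4 without P9 replicate 1 or 3 or FFSS replicate 2 or 3, and 5 without any P3 library or P9 replicate 2. Over all genes, 1997 were called lower with all libraries, and 1183 to 2826 with 1 library left out. The comparisons of P9 and of FFSS with P3 share their P3 libraries, so their values are given side by side and not related to each other.

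**Figure D2:**
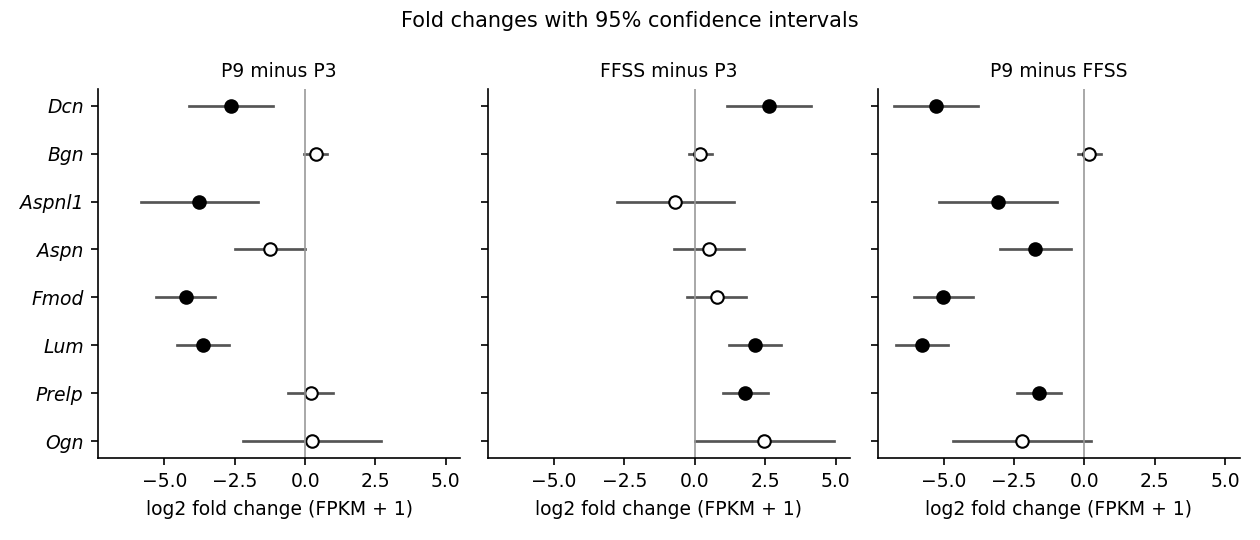
Log2 fold changes on the log2(FPKM + 1) scale with 95% confidence intervals for the 8 tested SLRP genes in the 3 comparisons, with filled points at an adjusted p under 0.05 and open points otherwise. Bgn lies within 0.38 of 0 in all 3 panels, and Lum and Dcn lie on opposite sides of 0 in the first and second panels.

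Among the class II genes, fibromodulin regulates collagen fibril growth and guides lysyl oxidase to collagen. Fmod (chromosome 13, 50873605 to 50885563, plus strand, Rnor_6.0) had levels of 1130, 983 and 1249 FPKM in the P3 libraries. In P9 replicates 1 to 3 it had 34.4, 39.6 and 143 FPKM. With FFSS its levels were 1560, 2289 and 1968 FPKM. The 3 groups did not overlap: P9 lay lowest, P3 between, and FFSS highest. Fmod fell at P9 (log2 fold change -4.24, SE 0.46, 95% confidence interval -5.28 to -3.20, adjusted p = 0.000808). On the log2(FPKM + 1) scale, 2 of the 13059 tested genes had a lower fold change. That scale makes the falls of low genes smaller than they are, so this rank favours genes with a high level at P3. Fmod was lower at P9 than with FFSS as well (log2 fold change -5.02, adjusted p = 0.000132). These calls stood under every alternative tried.

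The higher Fmod level with FFSS was 0.78 on the log2 scale (95% confidence interval -0.26 to 1.82) and did not pass (adjusted p = 0.248). It passed when P9 replicate 3, the P9 library with the most Fmod, was left out (adjusted p = 0.0211) and when P9 was left out of the fit altogether (adjusted p = 0.0357). The spread that the test uses is shared by all groups, and on the log2 scale of the test Fmod varied most at P9.

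Lumican, a keratan sulfate proteoglycan that limits fibril thickness, had the largest difference between P9 and FFSS among the 8 genes. Lum (chromosome 7, 38819771 to 38826862, plus strand) had levels of 34.9, 15.2 and 46.7 FPKM at P3. The P9 libraries held 0.655, 1.302 and 2.86 FPKM, from 18, 40 and 93 fragments. The FFSS libraries held 134, 142 and 120 FPKM. No groups overlapped, and the FFSS libraries were the most alike. Lum fell at P9 (log2 fold change -3.63, SE 0.40, adjusted p = 0.000915) and rose with FFSS (2.13, SE 0.40, 95% confidence interval 1.22 to 3.05, adjusted p = 0.00845). Between P9 and FFSS the log2 fold change was -5.76 (adjusted p = 3.2e-05). All 3 calls stood under every alternative tried. In rank among all genes of the table, Lum went from 2295 at P3 to 11305 at P9 and 605 with FFSS.

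PRELP, a class II member that binds basement membrane heparan sulfate and collagen, changed with flow and not detectably with passage. Prelp (chromosome 13, 50749514 to 50761355, minus strand) had levels of 98.1, 78.2 and 108 FPKM at P3 and 124, 112 and 90.1 FPKM at P9. With FFSS it reached 177, 517 and 392 FPKM. P3 and P9 overlapped, and each FFSS library lay above both groups, with replicate 1 lowest. Prelp rose with FFSS (log2 fold change 1.80, SE 0.35, 95% confidence interval 1.02 to 2.58, adjusted p = 0.00882), a call that stood under every alternative. Between P9 and P3 the log2 fold change was 0.19 (95% confidence interval -0.59 to 0.98, adjusted p = 0.799). That interval holds changes in either direction.

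Osteomodulin, a class II protein of mineralising tissue, was at the limit of detection. Omd (chromosome 17, 14635184 to 14637832, minus strand) had 1 fragment in P3 replicate 1 and 0 in the other 8 libraries. A count of 0 allows up to 3 fragments, or 0.0974 to 0.115 FPKM at this gene's length, for counting error only.

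Among the class I genes, decorin shapes collagen fibrils and sequesters TGF-beta. Dcn (chromosome 7, 38742051 to 38782323, plus strand) had levels of 21.4, 7.21 and 31.5 FPKM at P3. At P9 it had 1.06, 1.51 and 3.82 FPKM, and with FFSS it had 250.04, 47.7 and 116 FPKM. The groups did not overlap, but replicates spread widely, with P3 replicate 2 low and FFSS replicate 1 high. Dcn fell at P9 (log2 fold change -2.63, SE 0.66, 95% confidence interval -4.13 to -1.14, adjusted p = 0.0376) and rose with FFSS (2.63, SE 0.66, 95% confidence interval 1.14 to 4.13, adjusted p = 0.0231). Dcn was lower at P9 than with FFSS (log2 fold change -5.27, adjusted p = 0.000663) under every alternative tried.

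The Dcn call at P9 depended on single libraries. Its adjusted p was 0.133 without P3 replicate 1, 0.142 without P3 replicate 3, 0.133 without P9 replicate 1, 0.132 without P9 replicate 2, 0.0558 without P9 replicate 3 and 0.0624 without FFSS replicate 3. It was also lost with voom (adjusted p = 0.129) and with no filter on low genes (adjusted p = 0.079). The Dcn rise with FFSS was lost without P3 replicate 1 (adjusted p = 0.0596), P3 replicate 2 (0.078) or FFSS replicate 3 (0.0715), with P9 left out of the fit (0.0541) and with no filter (0.0508).

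Biglycan, the closest relative of decorin, was the most even member. Bgn (chromosome X, 157319046 to 157331204, minus strand) had levels of 1170, 1256 and 1115 FPKM at P3. In P9 it had 1953, 1535 and 1195 FPKM, and in FFSS 1315, 1430 and 1319 FPKM. P9 overlapped P3 through its replicate 3, and all FFSS libraries lay above all P3 libraries. Neither difference passed: the log2 fold change was 0.38 for P9 (95% confidence interval -0.02 to 0.78, adjusted p = 0.247) and 0.20 for FFSS (95% confidence interval -0.20 to 0.60, adjusted p = 0.446). Each interval stays below a 2-fold rise, which is 1 on the log2 scale.

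Asporin, a class I protein that carries an aspartate-rich tail and binds TGF-beta, was counted under 2 symbols. The copy called Aspnl1 (chromosome 17, 14656009 to 14679409, minus strand) had levels of 66.8, 5.95 and 8.71 FPKM at P3. At P9 it had 0.192, 0.215 and 0.284 FPKM, from 4, 5 and 7 fragments, and with FFSS 1.93, 19.7 and 16.99 FPKM. P9 lay below both other groups in every library, P3 replicate 1 stood far above its group, and FFSS replicate 1 below its own. Aspnl1 fell at P9 (log2 fold change -3.75, SE 0.92, 95% confidence interval -5.84 to -1.66, adjusted p = 0.0345) and was lower at P9 than with FFSS (-3.07, adjusted p = 0.0338). The FFSS difference from P3 was -0.69 (95% confidence interval -2.78 to 1.40, adjusted p = 0.623), and its sign turned to 0.33 without P3 replicate 1 and to 0.22 without FFSS replicate 1.

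The fall of Aspnl1 at P9 was not called without P3 replicate 1 (adjusted p = 0.0863), P3 replicate 3 (0.0705), P9 replicate 1 (0.109), P9 replicate 2 (0.115), P9 replicate 3 (0.0909) or FFSS replicate 3 (0.0503). The same held with voom (0.221) and with no filter (0.0744). Its difference between P9 and FFSS was likewise lost without any 1 of the P9 libraries (adjusted p = 0.0756 to 0.087), without FFSS replicate 2 (0.1) or 3 (0.112), with voom (0.173) and with no filter (0.0673).

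The gene that carries the symbol Aspn (chromosome 17, 15495790 to 15519282, minus strand) was lower. Its levels were 2.43, 2.76 and 3.39 FPKM at P3, 0.0939, 1.85 and 0.370 FPKM at P9, and 1.14, 9.15 and 6.35 FPKM with FFSS. All P9 libraries lay below all P3 libraries, and FFSS overlapped both. The P9 difference from P3 was -1.24 on the log2 scale (95% confidence interval -2.50 to 0.01) and did not pass (adjusted p = 0.221), although it did without FFSS replicate 1 (0.0363) and with FFSS left out of the fit (0.0497). The FFSS difference from P3 was 0.50 (adjusted p = 0.549, and 0.0376 without FFSS replicate 1). Aspn was lower at P9 than with FFSS (-1.74, adjusted p = 0.0414), a call that was lost without any 1 of the 3 P3 libraries (0.0607 to 0.0617), P9 replicate 1 (0.131) or 3 (0.106), or FFSS replicate 2 (0.12) or 3 (0.129). It was also lost with voom (0.0719), with no filter (0.0794) and with P3 left out of the fit (0.0941).

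Osteoglycin, the class III member known from bone and vessel wall, split the FFSS libraries. Ogn (chromosome 17, 14607442 to 14627937, minus strand) had levels of 4.47, 4.60 and 4.22 FPKM at P3. At P9 it had 0.996, 8.27 and 13.4 FPKM, and with FFSS 3.56, 84.8 and 68.7 FPKM. FFSS replicates 2 and 3 lay above all other libraries, whereas FFSS replicate 1 lay below P3, as did P9 replicate 1. The FFSS difference from P3 was 2.47 on the log2 scale (SE 1.09, 95% confidence interval 0.01 to 4.93) and did not pass (adjusted p = 0.132). Without FFSS replicate 1 it passed (adjusted p = 0.00348), as did the difference between P9 and FFSS (0.00344, against 0.148 with all libraries). The P9 difference from P3 was 0.25 (95% confidence interval -2.21 to 2.71, adjusted p = 0.926).

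The osteoglycin, osteomodulin and asporin genes each appear in the deposited table at 2 places on chromosome 17, and fragments of near-identical copies may be split between them by the counting. RefSeq's GRCr8 table holds 1 gene for each, and lists Aspnl1 as a synonym of Aspn. The second osteoglycin gene, NEWGENE_1308171 (15447716 to 15467359, minus strand), had levels of 2.21, 2.42 and 3.30 FPKM at P3, 11.2, 0.920 and 1.20 FPKM at P9, and 1.43, 4.26 and 6.29 FPKM with FFSS. In P9 replicate 1 it held 91.8% of the summed osteoglycin FPKM, against 10.02% and 8.18% in P9 replicates 2 and 3. The low Ogn value of P9 replicate 1 therefore stood beside a high value of the second copy.

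Summed over both copies, osteoglycin was 7.07 ± 0.426 FPKM at P3, 12.0 ± 2.74 at P9 and 56.4 ± 45.1 with FFSS (SD, n = 3). All P9 sums (9.19 to 14.6) lay above all P3 sums (6.68 to 7.52), which the Ogn gene alone did not show. The summed log2 fold change at P9 was 0.67 (adjusted p = 0.711), and with FFSS it was 2.10 (adjusted p = 0.111), so neither passed. The FFSS sums stayed split, at 4.99 in replicate 1 against 89.1 and 75.0 FPKM in replicates 2 and 3.

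For asporin the sums were 69.2, 8.70 and 12.1 FPKM at P3, 0.286, 2.06 and 0.654 at P9, and 3.07, 28.9 and 23.3 with FFSS. By limma on these sums, asporin was called lower at P9 than at P3 (log2 fold change -3.47, adjusted p = 0.0414) and than with FFSS (-2.94, adjusted p = 0.0350). The FFSS difference from P3 was -0.53 (adjusted p = 0.702). The summed fit was made with all libraries only, and P3 replicate 1 stood far above its group. Both calls of Aspnl1 alone were lost when single libraries were left out, so the calls on the sums may likewise rest on single libraries. The second osteomodulin gene, LOC103690116 (15475710 to 15484269), had 0 to 25 fragments and at most 0.803 FPKM, in FFSS replicate 2. Aspn, NEWGENE_1308171 and LOC103690116 lie within the span of Cenpp, a kinetochore gene on the opposite strand with 0.734 to 2.12 FPKM, and whether the counting used strand is not stated.

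**Figure D3:**
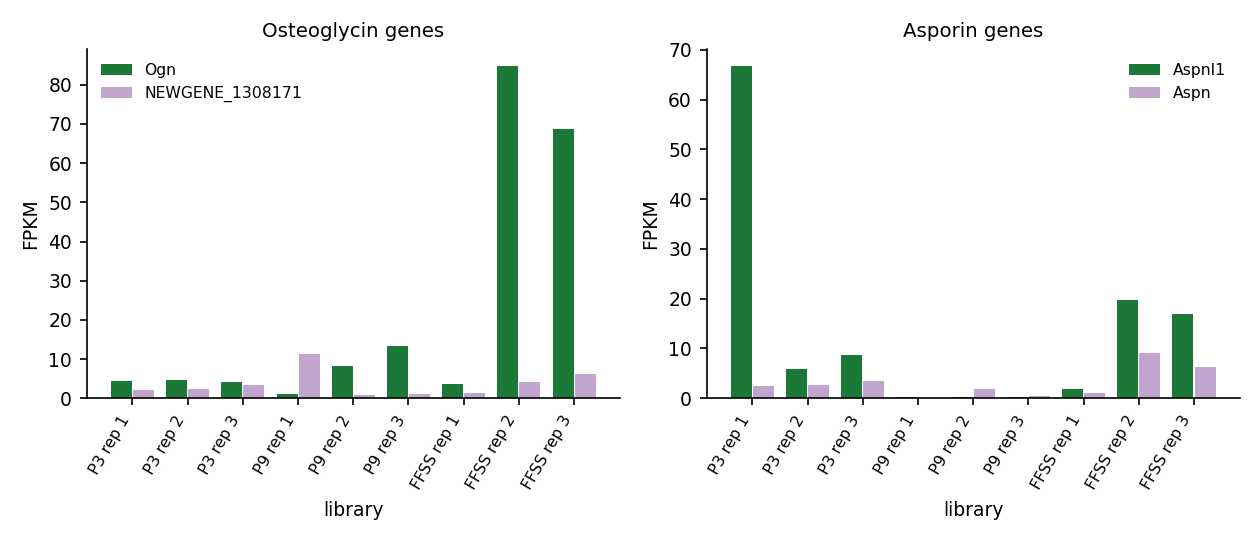
FPKM of the paired gene copies of osteoglycin (left) and asporin (right) in each library, with bars from 0. In P9 replicate 1 the second osteoglycin copy stands above Ogn, and P3 replicate 1 holds the highest Aspnl1 bar.

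The make-up of the SLRP transcripts differed between the groups, as did their sum. The 9 genes summed to 2482 ± 114 FPKM at P3, 1754 ± 336 at P9 and 3996 ± 549 with FFSS (SD, n = 3). Fmod made up 45.1% ± 3.46 of the sum at P3, 4.62% ± 4.58 at P9 and 48.3% ± 2.65 with FFSS. Bgn made up 47.7% ± 5.12, 88.4% ± 5.24 and 34.2% ± 3.53. The ratio of Fmod to Bgn was 0.956 ± 0.169 at P3, 0.0545 ± 0.0569 at P9 and 1.43 ± 0.215 with FFSS, and no groups overlapped.

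The genes other than Fmod and Bgn held 7.25% ± 2.16 of the sum at P3 and 6.996% ± 0.882 at P9, with overlapping libraries. With FFSS they held 17.5% ± 0.897, above every other library. Of these, Prelp was the largest, with 3.80% ± 0.443, 6.21% ± 0.358 and 8.77% ± 3.25 of the sum in P3, P9 and FFSS. The ratio of Dcn to Lum, which lie 37448 bases apart on chromosome 7, was 0.473 to 0.673 at P3 and 1.16 to 1.62 at P9. With FFSS that ratio ran from 0.336 to 1.87, so that the neighbours did not keep a common proportion among the FFSS replicates.

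**Figure D4:**
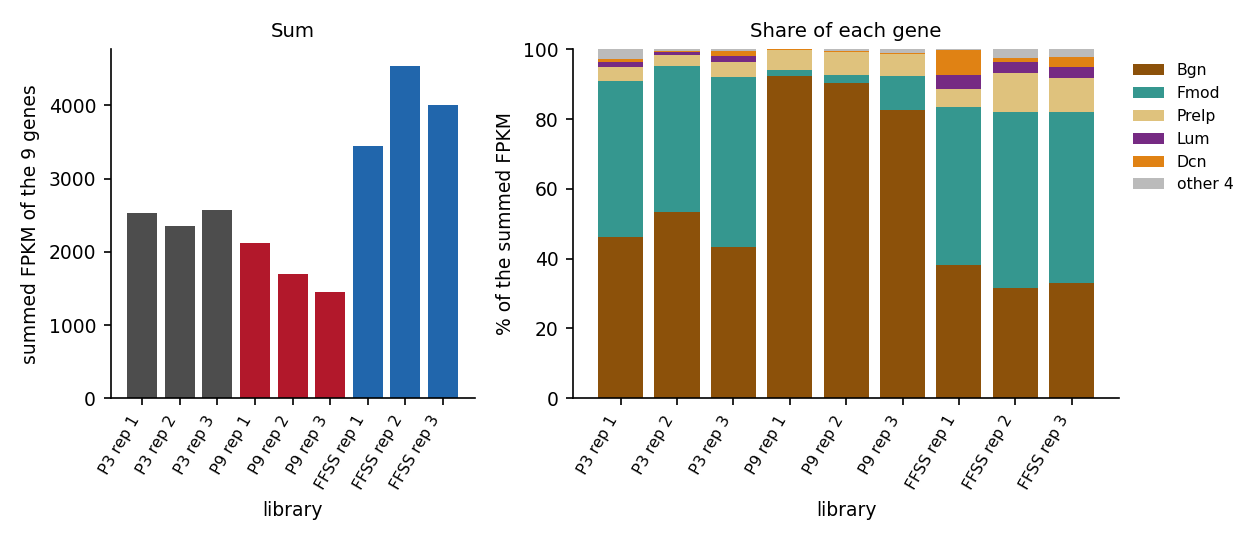
Summed FPKM of the 9 SLRP genes in each library (left, bars from 0) and the share of each gene in that sum (right, in percent). Bgn takes 82.5% to 92.4% of the sum in the P9 libraries, and the genes other than Fmod and Bgn take 16.5% to 18.1% in the FFSS libraries.

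Likeness to other genes was measured as the root mean square difference, over the 9 libraries, of log2(FPKM + 1) after subtracting each gene's P3 mean, among all tested genes with a symbol. The libraries share their groups and their scaling, so the distances are descriptions. Fmod lay closest to Pla2g2a, a secreted phospholipase (distance 0.387), Abi3bp (0.551) and Thbs2 (0.702), both matrix proteins. Lum lay closest to Sfrp2, a secreted Wnt modulator (0.362), Tspan11 (0.620) and Mmp3, stromelysin (0.684). The nearest genes to Dcn were C1s, a complement protease (0.392), the chemokine Ccl20 (0.504) and Lbp, the lipopolysaccharide binding protein (0.566). Prelp lay near AY172581.9 (0.202), Irf2bpl (0.202) and Irf1, an interferon-responsive transcription factor (0.219).

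The flatter and noisier members gave other neighbours. Bgn lay within 0.0969 of Pmpcb, 0.111 of Golph3l and 0.113 of Rexo2, genes with as little change as its own. Aspn was closest to Tsc22d3 (0.390), a glucocorticoid-induced gene, then to Wscd2 (0.392) and Lrrn4cl (0.417). Ogn had AABR07027753.3 (0.499), Slc4a11 (0.652) and AABR07061842.1 (0.672) nearest to it. Aspnl1 had no gene closer than 0.945 (AABR07030544.1), followed by Anxa8 (1.01) and Ccdc3 (1.06).

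Neighbouring genes on the chromosome were compared for the members that changed. Optc, which encodes opticin, a class III SLRP of the eye, lies 3160 bases from Prelp, downstream of it on the same minus strand. It had 0.891 ± 0.414 FPKM at P3, 1.05 ± 0.330 at P9 and 13.2 ± 6.22 with FFSS. Like Prelp it rose with FFSS (log2 fold change 2.81, adjusted p = 0.00174) and did not pass at P9 (0.12, adjusted p = 0.881). Btg2, an antiproliferative gene 27617 bases from Fmod, had 8.08 ± 0.400, 20.8 ± 4.29 and 154 ± 112 FPKM, and did not share the fall of Fmod at P9 (log2 fold change 1.25, adjusted p = 0.241), while with FFSS it rose (3.695, adjusted p = 0.00433). Kera, 31200 bases beyond Lum, had 1 fragment in all.

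Of 10 other SLRP family genes listed, 3 were tested. Podnl1, a class V relative of Podn, was lower at P9 (22.1 ± 1.73 to 11.4 ± 1.88 FPKM, -0.91 on the log2 scale, adjusted p = 0.00472) and rose with FFSS (to 43.8 ± 5.62, 0.95, adjusted p = 0.00368). Tsku, which encodes the secreted signalling modulator tsukushi, fell at P9 (74.8 ± 4.85 to 20.3 ± 2.99 FPKM, -1.84, adjusted p = 0.000136) and also with FFSS (to 35.5 ± 2.84, -1.06, adjusted p = 0.00145), a direction in which 0 of the 8 tested members passed. With Optc these calls stood whichever library was left out. The others, Kera, Epyc, Chad, Chadl, Ecm2, Nyx and Nepn, stayed below the tested range.

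Of the collagens that SLRPs bind, 11 were tested. At P9 8 of them fell and 0 rose, and Col12a1, Col11a1, Col1a1 and Col5a2 did so whichever library was left out. With FFSS 5 fell and 0 rose, of which Col5a1, Col1a1 and Col5a2 stood without any 1 library. Among all tested genes, limma called 4.44% lower at P9 and 10.4% with FFSS at an adjusted p under 0.05. At an unadjusted p under 0.05 10 collagens were lower at P9 and 7 with FFSS, voom called 8 and 5 lower, and either way 0 were higher. The count of lower collagens at P9 was 5 when any P3 library or P9 replicate 1 was left out, and 9 without FFSS replicate 1. With FFSS it was 3 without P3 replicate 1 or 2, and 4 without FFSS replicate 1. The median log2 fold changes were -0.88 and -0.68, against 0.00 and -0.01 over all tested genes. The fibril collagen gene Col1a1 went from 9777 ± 504 FPKM at P3 to 4805 ± 307 at P9 and 4415 ± 593 with FFSS. Col12a1, a fibril-associated collagen, went from 1062 ± 18.3 to 153 ± 36.4 at P9 (-2.81 on the log2 scale, adjusted p = 6.2e-05). Fmod, Lum and Dcn had the direction of the collagens at P9, and Lum, Dcn and Prelp the opposite direction with FFSS.

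Of 14 tested cross-linking and fibril-associated partners, 3 fell at P9 (Thbs2, Abi3bp and Lox) and 1 rose (Fbn1). Lox, the lysyl oxidase that fibromodulin binds, went from 1011 ± 56.9 to 353 ± 52.2 FPKM at P9 (-1.52 on the log2 scale, adjusted p = 0.000313). With FFSS 3 partners rose and 5 fell, of which 2 and 1 were called whichever library was left out. The shares of all tested genes called higher and lower were 5.39% and 4.44% at P9, and 11.4% and 10.4% with FFSS. When FFSS replicate 1 was left out, 3 partners were higher and 4 lower at P9, and 5 higher and 5 lower with FFSS. Without FFSS replicate 2, 3 were higher at P9, and without P3 replicate 1 or 2 only 1 was lower with FFSS. Thbs2, thrombospondin 2, rose (427 ± 30.8 to 847 ± 140 FPKM, 0.97, adjusted p = 0.0109), and Fn1, fibronectin, fell (2231 ± 90.2 to 1134 ± 293 FPKM, -1.01, adjusted p = 0.00784). Each of these named calls stood whichever library was left out, other than that of Fbn1, which was lost without P3 replicate 1 or 3.

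Among 21 tested enzymes of the glycosaminoglycan linker and of chondroitin and dermatan sulfate, the chains of decorin and biglycan, 0 rose and 3 fell at P9. Across all tested genes, 5.39% were called higher and 4.44% lower at P9, and 11.4% and 10.4% with FFSS. Xylt1, which starts the chain, had 6.88 ± 1.66 FPKM at P3 and 1.29 ± 0.169 at P9 (-1.77 on the log2 scale, adjusted p = 0.00122) and was the 1 enzyme called whichever library was left out. At an unadjusted p under 0.05 1 enzyme was higher at P9, and 0 by voom. With FFSS 4 rose and 0 fell (3 lower at an unadjusted p under 0.05 and 1 by voom), and Csgalnact1, Chst12 and Chsy3 stood without any 1 library. These counts moved with the libraries used. Without FFSS replicate 1, 7 enzymes were lower at P9, and 7 were higher and 3 lower with FFSS. Without FFSS replicate 2, 4 were lower at P9, and 4 were higher and 2 lower with FFSS. When any other library was left out, 1 was lower at P9. Csgalnact1, a chain-initiating transferase, rose from 4.26 ± 1.29 to 27.1 ± 3.78 FPKM (2.44, adjusted p = 0.000147).

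Of 11 tested enzymes of keratan sulfate, the chain of lumican and fibromodulin, 1 fell at P9, the sulfotransferase gene Chst1 (1.70 ± 0.219 to 0.153 ± 0.0671 FPKM, -1.23 on the log2 scale, adjusted p = 0.00198). Over all tested genes limma called 5.39% higher and 4.44% lower at P9, and 11.4% and 10.4% with FFSS. With FFSS 0 of these enzymes passed by limma, with 1 higher and 3 lower at an unadjusted p under 0.05 and 1 higher by voom. Without FFSS replicate 1, 2 were called higher and 3 lower with FFSS, and 1 higher and 2 lower at P9. Without FFSS replicate 2, 1 was higher at P9.

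Of 10 tested proteases known to cut SLRPs, 5 rose and 1 fell with FFSS. In that comparison 11.4% of all tested genes were called higher and 10.4% lower, against 5.39% and 4.44% at P9. Of the 5, the collagenase gene Mmp13 passed the filter on low values through the FFSS libraries alone and is not counted as support. The number higher was 2 of 9 tested without FFSS replicate 3, 3 of 10 without P3 replicate 1 or 2, and 4 of 9 without FFSS replicate 1. Mmp13 was not tested when an FFSS library was left out. Mmp2, gelatinase A, went from 658 ± 53.2 to 1729 ± 241 FPKM (1.39 on the log2 scale, adjusted p = 0.000691). Mmp3 rose with FFSS (11.3 ± 6.89 to 43.9 ± 11.8 FPKM, 1.995, adjusted p = 0.00862) and fell at P9 (to 0.815 ± 0.20, -2.61, adjusted p = 0.00326), the same directions as Lum. At P9 1 protease rose (Htra1, a call lost when P9 replicate 2, P3 replicate 1 or P3 replicate 3 was left out) and 1 fell (Mmp3). The number lower at P9 was 4 of 9 tested when FFSS replicate 1 was left out, and 2 when FFSS replicate 2 was. The calls of Mmp2 and Mmp3 stood whichever library was left out.

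Of 17 tested growth factor ligands and receptors bound by SLRPs, 2 rose and 1 fell at P9, where 5.39% and 4.44% of all tested genes did. With FFSS 4 rose and 3 fell, where the shares over all tested genes were 11.4% and 10.4%. Whichever library was left out, 2 rises and 0 falls of each comparison stood. With FFSS replicate 1 left out, 3 were higher and 4 lower at P9, and 4 higher and 4 lower with FFSS. Without FFSS replicate 2, 3 were higher and 2 lower at P9. The 3 falls with FFSS became 0 without FFSS replicate 2 or 3 or any P3 library, and 1 without P9 replicate 2. The rises with FFSS became 2 without P3 replicate 2. Tgfb2, a ligand that decorin binds, rose at P9 from 44.9 ± 3.13 to 137 ± 15.2 FPKM (1.59 on the log2 scale, adjusted p = 0.00136). Tlr2, an innate receptor of biglycan and decorin, rose with FFSS from 1.11 ± 0.611 to 16.95 ± 11.2 FPKM (2.94, adjusted p = 0.0027). Of 14 tested transcription factors of chondrocytes and tenocytes, 6 fell and 1 rose at P9, and 6 rose and 1 fell with FFSS. Of these, 4 falls and 0 rises at P9, and 3 rises and 1 fall with FFSS, stood without any 1 library. Sox5, among the 6 that rose with FFSS, passed the filter on low values through the FFSS libraries alone and is not counted as support. The number higher with FFSS was 3 of 13 tested when FFSS replicate 3 was left out and 5 of 13 when FFSS replicate 1 was. Sox5 was not tested when an FFSS library was left out. The number was 4 of 14 without any 1 P3 library or P9 replicate 2, and 4 of 13 without FFSS replicate 2. Sox6 fell at P9 from 5.53 ± 0.538 to 1.28 ± 0.382 FPKM (-1.52, adjusted p = 0.000731), and Sox9 rose with FFSS from 4.52 ± 0.403 to 12.7 ± 2.74 FPKM (1.29, adjusted p = 0.00338). All 4 of these named calls stood whichever library was left out.

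**Figure D5:**
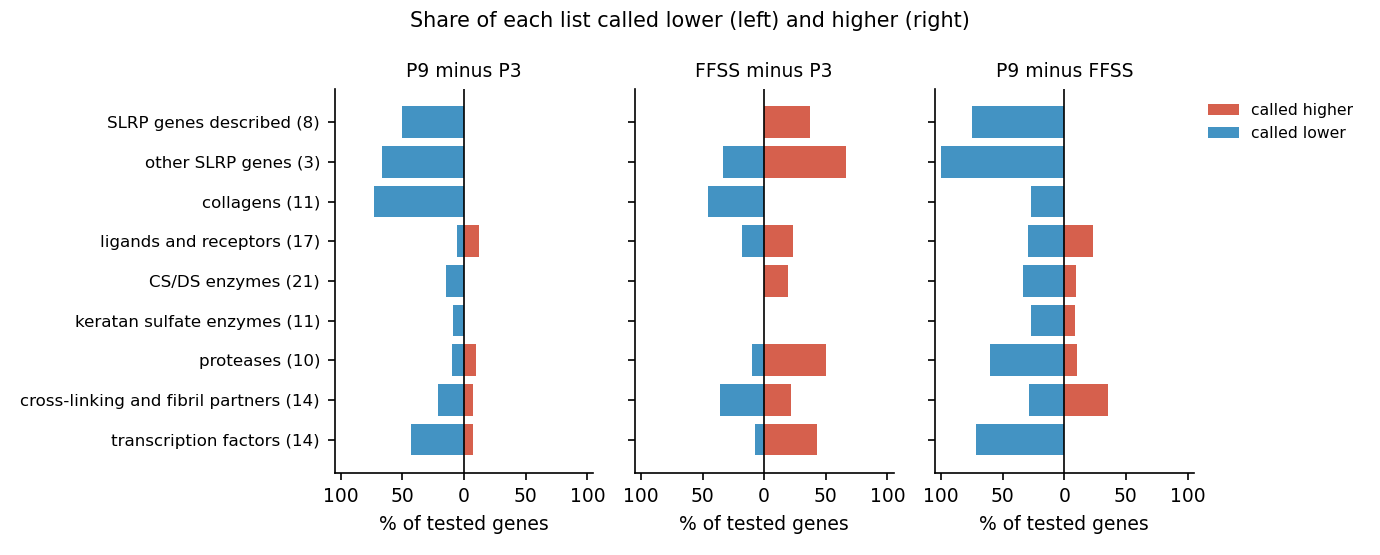
Percent of the tested genes in each list called lower (left of 0, blue) or higher (right of 0, red) in the 3 comparisons, with the number tested in brackets. The shares of all tested genes called lower and higher are 4.44% and 5.39% for P9 against P3. They are 10.4% and 11.4% for FFSS against P3, and 15.3% and 16.1% for P9 against FFSS. The described SLRP genes have bars on 1 side of 0 in each panel, and the collagens lie on the lower side in all 3. The bars include Mmp13 (proteases) and Sox5 (transcription factors), which passed the filter on low values through the FFSS libraries alone.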

How the data were processed

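Polyadenylated RNA of 9 rat libraries was measured. The deposited table gives FPKM per gene. Tools listed in the submitters' processing notes are featureCounts 1.5.0-p3 and HISAT2 2.0.5, with build Rnor_6.0. Settings and strand are not given in the sources used here. The deposited FPKM times gene length were whole multiples of 1 step per library for 100% of values (tolerance 0.01), and the steps carried a median-of-ratios scaling, so fragments per gene were recovered: 1 fragment of a 1 kb gene is 0.0619 to 0.0733 FPKM.

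Levels were tested with limma 3.58.1 (R 4.3.3) on log2(FPKM + 1), with group means, a trend in the prior and all 9 libraries, for genes that reached 1 FPKM in 3 or more libraries. The residual degrees of freedom were 6. Benjamini-Hochberg adjustment ran over all 13059 genes, tests were two-sided, and a gene was called at an adjusted p under 0.05. The added pseudocount makes fold changes of low genes smaller than they are. Tests were checked on simulated fragments with the same spread setting for all genes and libraries. That check does not cover replicates as uneven as these. A count of 0 was taken to allow 3 fragments, which covers counting error only.

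Alternatives were another pseudocount (0.1), no filter or a filter at 5 FPKM, scaling by library totals, voom on the recovered fragments, a fit of the 2 groups compared, a replicate block, each library left out, and, chosen after seeing the data, summed gene copies. Named genes of a list are among its 4 with the smallest adjusted p in a comparison; the 3 most alike genes and the nearest annotated neighbours are named too. The members and lists were chosen with earlier results of these data known. Coordinates of genes are those of the deposited table, and promoters are RefSeq's (GRCr8).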

Additional observations from a re-analysis of the deposited data

How the results depend on the processing

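Fmod and Lum at P9, Lum and Prelp with FFSS, and Fmod, Lum, Dcn and Prelp between P9 and FFSS kept their calls in 17 of 17 alternatives. Among these is the fit with summed gene copies, which alters only the values of the osteoglycin, osteomodulin and asporin genes. For the other members it is no check. Over all members and comparisons, 351 values kept direction and call status, a number that includes values called neither in the main fit nor in the alternative. A call was lost in 40, gained in 7, and 4 values reversed. Reversed values were the log2 fold change of Ogn at P9 against P3, -0.01 without P9 replicate 2 and -0.34 without P9 replicate 3 (up to 1.09, without P9 replicate 1), and that of Aspnl1 with FFSS, 0.33 without P3 replicate 1 and 0.22 without FFSS replicate 1 (down to -1.32, without P3 replicate 2). Members lower at P9 than P3 numbered 2 with no filter and 2 with voom. With only the groups compared in the fit, 1375 genes were higher and 1113 lower at P9 than P3 (704 and 580 with all libraries), and 1233 higher and 1258 lower at P9 than with FFSS (2103 and 1997). Leaving out 1 library gave 2 to 5 members lower at P9 than P3, 2 to 5 higher with FFSS and 4 to 7 lower at P9 than with FFSS, and 0 in each opposite direction. Over all genes it gave 302 to 1227 higher and 257 to 1001 lower at P9, 658 to 2488 and 520 to 2534 with FFSS, and 1289 to 3050 and 1183 to 2826 for P9 against FFSS. Replicate numbers shared no deviation (correlations -0.04 to 0.03). With a replicate block, 3 members were lower at P9 (Aspnl1 lost, adjusted p = 0.0807), 3 higher with FFSS and 5 lower at P9 than with FFSS (Aspnl1 lost, 0.066), and all genes gave 550 and 432, 1204 and 1061, and 1842 and 1787. The cause of these differences was not tested. With 3 libraries a group, the intervals of Ogn and Aspnl1 span over 4 on the log2 scale, and Aspnl1 at P9 rests on 4 to 7 fragments a library.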
